A study of Homo sapiens with 12 samples.

Results

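The genes described here encode small transcription factors that switch other genes off, or that block the factors that switch them on: BHLHE40, BHLHE41, HES1, HES4, ID1, ID2 and ID3. They were taken by name from the table of transcripts, and the level of each gene was the sum of its transcripts that either matched an Ensembl transcript junction for junction or shared at least 1 splice junction with one. These 7 genes were among 56537 gene names in the table, they held 26 of 286562 such transcripts, and all 7 passed the filter that left 16680 genes for testing (summed level above 0.5 in at least 3 libraries). The level is given as FPKM, the number of fragments for every kilobase of a transcript and every 1000000 fragments mapped, which is a level per length and so can be set side by side between genes.

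Cells of HCT116, a human colorectal cancer line, were grown at 21% oxygen (0 h) or moved 24 h after plating to 1% oxygen for 1, 2 or 24 h, with no other agent and no change of genotype between groups, and 3 biological replicates were sequenced at each time as strand-specific libraries of polyadenylated RNA. All results are from 1 cell line. The sources used here do not say whether the 0 h cells were collected together with the 24 h cells, so hours in hypoxia and hours in culture cannot be told apart at 24 h. In RNA from a whole culture, fewer cells that use a gene and less of its RNA per cell cannot be told apart either.

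The basic helix-loop-helix (bHLH) proteins bind DNA in pairs, at short sequences called E-boxes, and the helix-loop-helix part of the protein makes the pair. BHLHE40 (also called DEC1) and BHLHE41 (DEC2) bind E-boxes and repress, and both are known as part of the circadian clock and as targets of the hypoxia-inducible factors. HES proteins are the classical targets of Notch signalling and repress with the help of TLE corepressors; in the gut HES1 keeps progenitors from taking the secretory fate. ID proteins have the helix-loop-helix but no DNA-binding part: they tie up the E proteins TCF3, TCF4 and TCF12 in pairs that cannot bind DNA, and they are known as targets of BMP and SMAD signalling.

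Read depth is not given with the table, but the lowest values of single-transcript genes fell on steps that show what 1 fragment was worth, and these imply about 26200000 to 52000000 fragments per library. Between 57.0% and 87.6% of the summed FPKM of a library lay in transcripts shorter than 300 bases. The share was 57.0% to 70.4% at 0 h, 69.0% to 84.1% at 1 h, 74.5% to 85.9% at 2 h and 64.9% to 87.6% at 24 h. The levels were therefore used as deposited and not rescaled to a common sum. The 6 genes used to check the treatment (CA9, NDRG1, ANKRD37, EGLN3, VEGFA and ADM, all known hypoxia-inducible genes) were all higher at 24 h, by 1.90 to 5.45 on the log2 scale. Of 7 epithelial markers 5 were detected, with a summed level of 1534 to 2290 FPKM in every library, while VIL1 and LGALS4 stayed below 0.5. Of the 5, CDH1 was called as higher at 24 h (log2 change 1.76, SE 0.13) and the other 4 were not called. Of 8 markers of other cells only CD68 and COL1A1 were detected, PTPRC and PECAM1, which define blood and endothelial cells, were not, and the sum of the 8 was 3.58 to 5.30 FPKM at 0 to 2 h and 15.4 to 20.3 FPKM at 24 h; whether this bears on the genes below was not tested.

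One library stood apart the most. In replicate 3 at 2 h BHLHE40 was 5.77 times the higher of the other replicates of that time, HES1 3.53 times and ID1 2.18 times, and so were the hypoxia-inducible ANKRD37 at 3.58 times and ADM at 2.55 times, and the clock gene PER1 at 2.86 times. Replicate 3 at 1 h did so to a smaller degree, with BHLHE40 at 3.75 times and ADM at 2.00 times. The other 4 genes of the hypoxia check did so less or not at all in replicate 3 at 2 h, with NDRG1 at 1.67, EGLN3 at 1.33, VEGFA at 1.27 and CA9 at 0.459 times the higher of the other replicates. At 0 h replicate 3 was 1.51 times the higher of the others for BHLHE40, 1.28 times for ID1 and 1.57 times for PER1. There HES1 was 0.955, ANKRD37 0.978 and ADM 1.06 times. The libraries of replicate 3 at 1 h and 2 h carried the label of their group and were kept. The changes of BHLHE40, HES1 and ID1 at those times are given with and without them, with replicate 3 at 0 h kept in both.

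**Figure D1:**
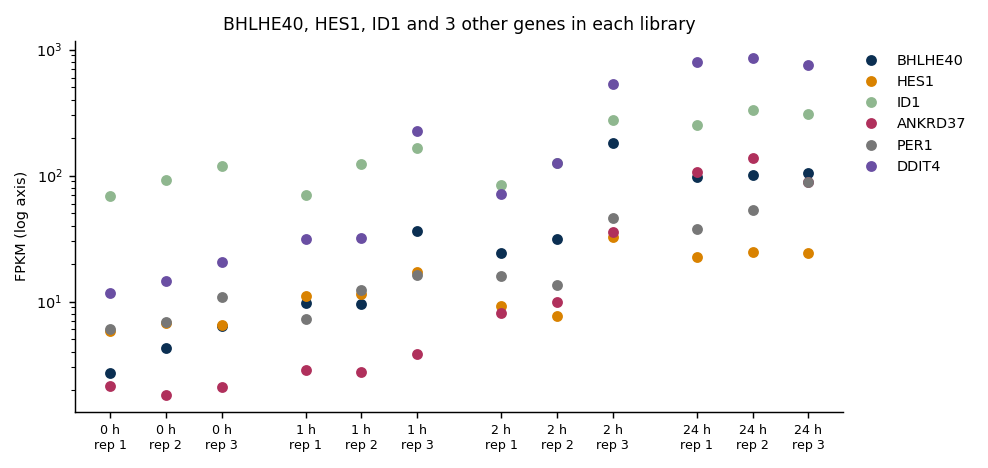
Level in FPKM (log axis) of BHLHE40, HES1, ID1, ANKRD37, PER1 and DDIT4 in each of the 12 libraries, 1 point per gene and library. In replicate 3 at 2 h BHLHE40 stood at 182 FPKM against 24.1 and 31.6 in the other replicates, and the other 5 genes were also highest of their time point there.

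At 24 h of hypoxia 4 of the 7 genes were higher than at 0 h by the test used throughout, and none was lower: BHLHE40, HES1, BHLHE41 and ID1. A gene was called when the fitted change exceeded 1 on the log2 scale, a doubling, with an adjusted p under 0.01 (limma on log2(FPKM + 0.5), Benjamini-Hochberg over all 16680 genes); 18.3% of all genes were called at 24 h, 8.76% as higher and 9.51% as lower. HES4, ID2 and ID3 were not called. At 1 h and at 2 h none of the 7 was called by limma, when 0.006% and 0.018% of all genes were. At those times 769 and 2547 of the 16680 genes had an unadjusted p under 0.05, among them BHLHE40 and HES1 at both times and HES4 at 2 h. The count at 1 h is no more than that threshold alone would give with no gene changed. The median change of the 7 genes was 0.30 at 1 h, 0.59 at 2 h and 1.70 at 24 h on the log2 scale, beside -0.01, -0.02 and -0.05 over all genes tested. With levels scaled to a common sum (TPM, below) it was -0.26, -0.44 and 0.80, beside -0.53, -0.88 and -0.67 over all genes. The medians at 1 h and 2 h include replicate 3, without which the changes of BHLHE40, HES1 and ID1 at those times were smaller, as given below.

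**Figure D2:**
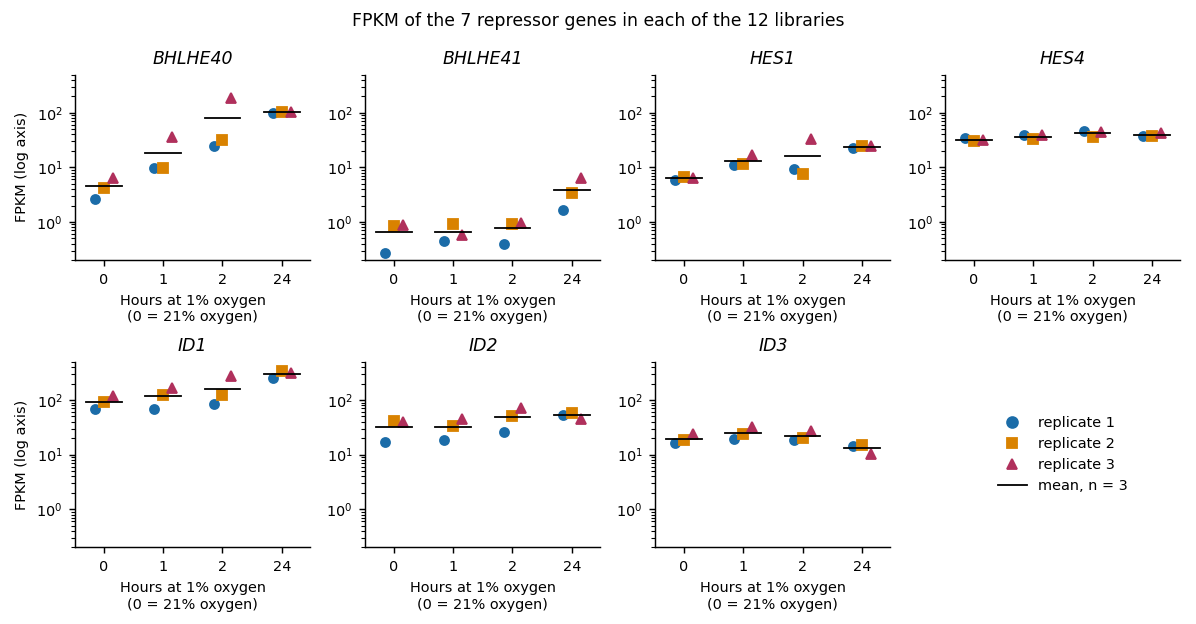
Level in FPKM (log axis) of the 7 genes in each library against hours at 1% oxygen, with 1 symbol per replicate and a line at the mean of 3. BHLHE40 rose from a mean of 4.47 to 101 FPKM between 0 h and 24 h, HES4 stayed between 30.3 and 45.6 FPKM, and ID3 was lowest at 24 h.

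BHLHE40 changed most. Its level at 0 h was 2.68, 4.27 and 6.44 FPKM in replicates 1, 2 and 3, and at 1 h it was 9.76, 9.60 and 36.6 FPKM. It was 24.1, 31.6 and 182 FPKM at 2 h and 97.4, 101 and 105 FPKM at 24 h. Each of the 3 later times lay wholly above 0 h, and relative to their mean the 24 h replicates were the closest to each other, with a coefficient of variation of 3.79% against 42.3% at 0 h and 112% at 2 h.

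The fitted change of BHLHE40 was 1.73 (SE 0.66) on the log2 scale at 1 h (1.11 without replicate 3 at 1 h), 3.47 (SE 0.66, limma adjusted p = 0.0551 by Benjamini-Hochberg) at 2 h and 4.43 (SE 0.66, adjusted p = 1.36e-04 by the same test) at 24 h, which is 21.5-fold on the log2(FPKM + 0.5) scale. That placed it 10th of 16680 genes by size of increase at 24 h. With only class = transcripts, which leaves out its main isoform of class j, the change was 1.88 at 2 h and 2.44 at 24 h, and the call at 24 h held. From 2 h to 24 h it differed by 0.95 (95% interval -0.49 to 2.40). Without replicate 3 at 1 h and at 2 h, left out after the values were seen, the change at 2 h was 2.57 (SE 0.26, limma adjusted p = 0.00559) and passed the test, and the difference from 2 h to 24 h became 1.86 (adjusted p = 0.00024) and passed too.

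BHLHE41, the close relative of BHLHE40, was low until 24 h. It stood at 0.27, 0.85 and 0.87 FPKM at 0 h, at 0.46, 0.93 and 0.59 FPKM at 1 h and at 0.39, 0.93 and 0.97 FPKM at 2 h. At 24 h it was 1.64, 3.36 and 6.38 FPKM, wholly above all 9 earlier libraries. The implied number of fragments behind a library's value was 27.6 to 155 at 0 h and 187 to 835 at 24 h, so counting error weighed more on BHLHE41 than on the other 6 genes.

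The fitted change of BHLHE41 was 0.02 (SE 0.38) at 1 h and 0.13 (SE 0.38) at 2 h, and 1.77 (SE 0.38, limma adjusted p = 0.00193) at 24 h. It was the only one of the 7 called between 2 h and 24 h in the main fit (log2 change 1.64, SE 0.38, limma adjusted p = 0.00359), when 14.7% of all genes were called, 7.44% as higher and 7.28% as lower. The replicate block called ID1 there too, and leaving out replicate 3 at 2 h called HES1. Without replicate 1 at 0 h the change of BHLHE41 at 24 h was 1.50 with an adjusted p of 0.0107 in limma, just outside the threshold. Its call between 2 h and 24 h was lost without replicate 1 at 2 h (1.41, adjusted p = 0.0188), without replicate 2 at 24 h (1.64, adjusted p = 0.0121) and without replicate 3 at 24 h (1.22, adjusted p = 0.0132). BHLHE40 exceeded BHLHE41 in every library, by 5.01 to 9.82 times at 0 h, by 34.0 to 188 times at 2 h and by 16.5 to 59.4 times at 24 h. The ratio was higher at 2 h and at 24 h than at 0 h in every replicate, and the 2 h and 24 h values overlapped.

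The starts of both DEC genes carry sequences of the kind that bHLH proteins and hypoxia-inducible factors are known to bind, and they are shown because both genes were called as higher at 24 h. The windows are 30 bases from the RefSeq promoters (250 bases before to 50 after the start, table built on GRCh38.p14), and all 7 promoters matched GRCh37, the build of the files, at 1 place each without a difference. Motifs were searched on both strands: the E-box CACGTG, and ACGTG, the core of the hypoxia response element, which also lies inside CACGTG on either strand. Capitals mark the E-box in the lines named E-box and ACGTG in the other.
BHLHE40 E-box, chr3:5020872-5020901, + strand, starting 245 bases before the start: tccaaCACGTGagactcatgtgatgaagcc
BHLHE40 ACGTG, chr3:5020936-5020965, + strand, starting 174 bases before the start: ggcagtggccagACGTGcctggagtcacag
BHLHE41 E-box, chr12:26278001-26278030, - strand, starting 48 bases before the start: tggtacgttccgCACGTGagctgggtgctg

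CACGTG was held by 2 of the 7 promoters, those of BHLHE40 and BHLHE41, and by 7.43% of all 27305 promoters in the table. ACGTG was held by 4 of 7 (BHLHE40, BHLHE41, ID1 and ID2) and by 21.6% of all. BHLHE40 had 4 matches to ACGTG, of which 2 were the strands of its E-box. These matches are a description of the letters, and binding was not measured.

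HES1, the Notch target that keeps gut progenitors from the secretory fate, was called as higher at 24 h and lay above its 0 h level in every library of every later time. It was 5.84, 6.78 and 6.47 FPKM at 0 h, 11.0, 11.5 and 17.1 FPKM at 1 h, 9.22, 7.67 and 32.5 FPKM at 2 h and 22.5, 24.8 and 24.3 FPKM at 24 h. All libraries at 1, 2 and 24 h lay above all at 0 h, yet replicates 1 and 2 were lower at 2 h than at 1 h.

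The fitted change of HES1 was 0.97 (SE 0.39) at 1 h (0.78 without replicate 3 at 1 h), 1.01 (SE 0.39) at 2 h and 1.83 (SE 0.39, limma adjusted p = 0.00176) at 24 h, the last being 3.55-fold. Without replicate 3 at 2 h the change at 2 h was 0.38 (SE 0.18, limma adjusted p = 0.496), while the difference from 2 h to 24 h grew from 0.82 (adjusted p = 0.0996) to 1.45 (SE 0.18, adjusted p = 6.95e-05) and passed the test. The size of its change at 2 h thus rested on 1 library.

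HES4, its relative and also a Notch target, was not called at any time. The values were 34.8, 30.3 and 31.8 FPKM at 0 h, 38.6, 32.6 and 38.4 FPKM at 1 h, 45.6, 36.2 and 43.8 FPKM at 2 h and 37.7, 37.4 and 43.1 FPKM at 24 h. The 2 h and 24 h libraries lay above those of 0 h with no overlap, although the fitted changes were small: 0.18, 0.37 and 0.28 (SE 0.11 each), the last with a limma adjusted p of 0.0512 and a 95% interval of 0.04 to 0.53. HES1 was 0.168 to 0.224 times HES4 at 0 h and 0.565 to 0.663 times at 24 h, with no overlap between these times.

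The promoters of HES1 and HES4 share a match to GTGGGAA, the core to which RBPJ, the DNA-binding partner of Notch, is known to bind, and are shown side by side because 1 of the pair was called at 24 h and the other was not. Capitals mark the core.
HES1, chr3:193853841-193853870, + strand, starting 85 bases before the start: tgaaagttactGTGGGAAagaaagtttggg
HES4, chr1:935536-935565, - strand, starting 77 bases before the start: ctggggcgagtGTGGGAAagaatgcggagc

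GTGGGAA was held by no other of the 7 promoters and by 6.28% of all promoters. The HES1 promoter also had 4 matches to CACNAG, the N-box that HES proteins are known to bind, and ID1 had 1, against 38.0% of all promoters with at least 1. No motif was held by all 7 members, and ID3 held none of the 4 that were searched.

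Among the ID genes ID1 rose at 24 h, and ID2 and ID3 did not pass the test. ID1 was 68.5, 93.0 and 119 FPKM at 0 h, 69.7, 123 and 164 FPKM at 1 h, 83.5, 126 and 275 FPKM at 2 h and 253, 334 and 310 FPKM at 24 h. The 24 h libraries lay above those of 0 h and 1 h, and 1 of them, replicate 1, was below replicate 3 at 2 h. The fitted change was 0.30 at 1 h, 0.64 at 2 h and 1.70 at 24 h (SE 0.39 each), a 3.24-fold rise at 24 h with a limma adjusted p of 0.00283. Without replicate 3 of the same time it was 0.022 at 1 h and 0.17 at 2 h. Without replicate 1 at 0 h it was 1.49 (adjusted p = 0.0150) and without replicate 2 at 24 h 1.61 (adjusted p = 0.0121), both outside the threshold of 0.01.

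ID2 was 16.9, 41.0 and 39.4 FPKM at 0 h, 18.5, 33.1 and 45.8 FPKM at 1 h, 26.1, 50.6 and 72.1 FPKM at 2 h and 54.2, 58.5 and 45.0 FPKM at 24 h. The 24 h libraries lay above those of 0 h, the nearest pair being 45.0 and 41.0 FPKM, while those of 1 h and 2 h overlapped with 0 h. The fitted change at 24 h was 0.78 (95% interval -0.11 to 1.68, limma adjusted p = 0.126). Against the 0 h library of the same number, the 24 h level was 3.22, 1.43 and 1.14 times in replicates 1, 2 and 3, so the rise was largest in replicate 1. Replicate 1 was the lowest ID2 value at 0, 1 and 2 h and not at 24 h.

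ID3 was 16.5, 18.2 and 23.5 FPKM at 0 h, 19.6, 24.2 and 32.0 FPKM at 1 h, 18.4, 20.3 and 27.0 FPKM at 2 h and 14.4, 15.2 and 10.3 FPKM at 24 h. The 24 h libraries lay wholly below those of each earlier time. The fitted change was -0.53 (SE 0.21, 95% interval -0.99 to -0.07, limma adjusted p = 0.0484) against 0 h and -0.70 (SE 0.21, adjusted p = 0.0152) against 2 h, neither of which passed both thresholds. The change against 0 h was -1.30 to -0.36 over the 28 alternatives.

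**Figure D3:**
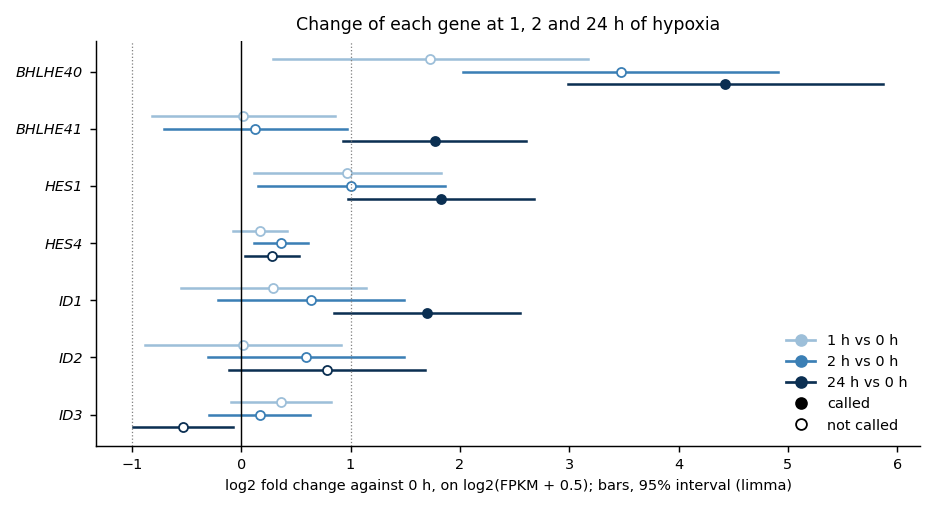
Fitted log2 fold change against 0 h on the log2(FPKM + 0.5) scale for the 7 genes at 1, 2 and 24 h, with 95% intervals from limma, filled where the gene was called and open where it was not, and dotted lines at a change of 1. The 4 filled points are BHLHE40, BHLHE41, HES1 and ID1 at 24 h. With levels scaled to a common sum (TPM) the estimates for HES4 and ID2 at 24 h are negative, as are those of BHLHE41, HES4, ID1, ID2 and ID3 at 1 h and 2 h and of HES1 at 2 h.

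The counts at 24 h depended on the choice of scale and also, as given above for BHLHE41 and ID1, on single libraries. TPM scales all transcripts of a library to a common sum, so that the short transcripts weigh on every other value, and with it the median change of all genes was -0.53, -0.88 and -0.67 on the log2 scale at 1, 2 and 24 h, where it was -0.0071, -0.018 and -0.051 in the deposited values. With TPM BHLHE40 stayed called as higher at 24 h (3.45) and ID3 was called as lower (-1.30), whereas HES1 (0.94), ID1 (0.82) and BHLHE41 (0.80) fell short of 1, and HES4 (-0.57) and ID2 (-0.075) changed sign. Relative to the median of all genes under TPM, the changes at 24 h were 4.12 for BHLHE40, 1.62 for HES1, 1.50 for ID1, 1.48 for BHLHE41, 0.60 for ID2, 0.11 for HES4 and -0.62 for ID3, with the same signs as in the deposited values. When TPM was computed without transcripts under 300 bases BHLHE40, BHLHE41, HES1 and ID1 were all called.

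The groups of the 7 genes separated more often than the tests called them. At 1 h BHLHE40 and HES1 lay wholly above 0 h, against 6.36% of all genes, and no member lay wholly below, against 7.33%. At 2 h BHLHE40, HES1 and HES4 lay wholly above, against 12.2% of all genes, and no member wholly below, against 13.1%. At 24 h all but ID3 lay wholly above 0 h, against 27.6% of all genes, and ID3 wholly below, against 32.8%. Between 2 h and 24 h BHLHE41 was wholly higher and ID3 wholly lower, against 25.3% and 28.9% of all genes.

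Within a library, the shares of ID1, ID2 and ID3 in their sum do not depend on how libraries are scaled; these and the other ratios between genes were chosen after the values were seen and were not tested. The sum of ID1, ID2 and ID3 was 102, 152 and 182 FPKM at 0 h and 322, 408 and 365 FPKM at 24 h. ID1 was 61.1% to 67.3% of it at 0 h, 64.6% to 68.3% at 1 h, 64.0% to 73.5% at 2 h and 78.7% to 84.9% at 24 h. ID3 was 11.9% to 16.2% of it at 0 h and 2.83% to 4.46% at 24 h, and ID2 held 16.5% to 26.9% at 0 h and 12.3% to 16.8% at 24 h. The ratio of ID1 to ID3 was 4.15 to 5.12 at 0 h, 3.55 to 5.12 at 1 h, 4.54 to 10.2 at 2 h and 17.6 to 29.96 at 24 h, so that the 24 h libraries lay apart from all others, and the ratio of ID2 to ID3 did likewise, at 3.77 to 4.35 against at most 2.67.

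**Figure D4:**
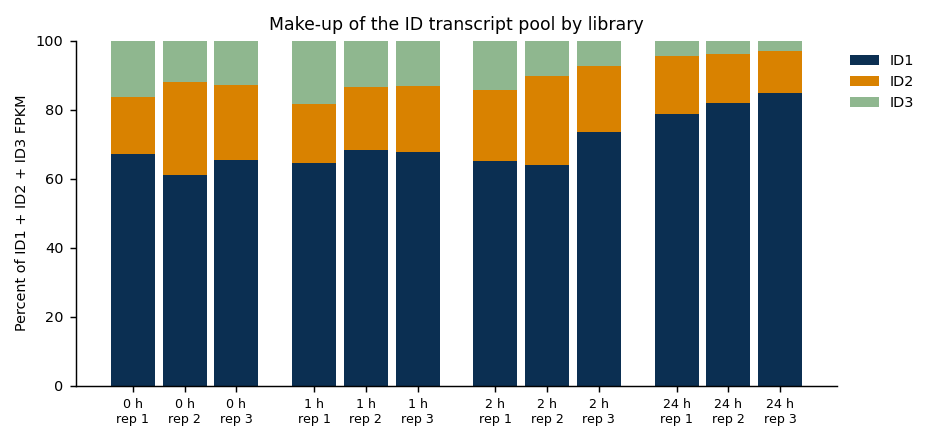
Percent of the summed FPKM of ID1, ID2 and ID3 taken by each gene, 1 bar per library. ID1 took 78.7% to 84.9% at 24 h against at most 73.5% in any earlier library, and ID3 took 2.83% to 4.46%.

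Of the E proteins, to which ID proteins bind, none was called. TCF3 changed by 0.03 (95% interval -0.17 to 0.23) and TCF12 by 0.03 (95% interval -0.22 to 0.29) at 24 h, and TCF4 was at or near 0, which left 2 of 3 tested. TCF3 and TCF12 together were at 107 to 118 FPKM at 0 h and 107 to 119 FPKM at 24 h. The ID sum was 0.867, 1.42 and 1.65 times that of the E proteins at 0 h, 0.994, 1.72 and 3.30 times at 2 h and 2.76, 3.83 and 3.06 times at 24 h. The 24 h libraries lay above those of 0 h and 1 h, and replicate 3 at 2 h lay among them.

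In the order of levels ID1 led at every time and BHLHE41 was last. At 0 h ID1, ID2, HES4, ID3, HES1, BHLHE40 and BHLHE41 followed each other, with ID2 and HES4 overlapping at means of 32.4 and 32.3 FPKM, and HES1 and BHLHE40 overlapping at 6.37 and 4.47 FPKM. At 24 h the order was ID1, BHLHE40, ID2, HES4, HES1, ID3 and BHLHE41, with means of 299, 101, 52.6, 39.4, 23.9, 13.3 and 3.79 FPKM, and no neighbours overlapped. At 1 h and at 2 h only 2 of the 6 steps were free of overlap. In an exact two-sided permutation test each separated step gave p = 0.1, the smallest that 3 values against 3 allow, so none could be called. The test treated the 2 genes of a step as independent, although both were measured in the same 3 libraries, so it cannot decide the order. Of the overlapping steps, HES1 above BHLHE40 at 0 h and ID1 above BHLHE40 at 2 h held within each of the 3 libraries. The other overlapping steps did not hold in every library. By mean level BHLHE40 was next to last at 0 h and second only to ID1 at 24 h.

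Most of each gene's level came from 1 or a few transcripts, and 19 of the 26 passed the same filter of 0.5 FPKM in 3 libraries. At 24 h 5 of the 19 were called as higher and none as lower, where 11.5% of the 62162 transcripts tested were called 5% as higher and 6.49% as lower. The 5 were 2 of BHLHE40 and 1 each of BHLHE41, HES1 and ID1. The BHLHE40 level lay mostly on 1 assembled isoform that shared junctions with the protein-coding transcript ENST00000256495, at 87.3% ± 7.24 (SD, n = 3) of the gene at 0 h and 95.1% ± 1.65 at 24 h. It changed by 4.53 on the log2 scale (SE 0.70, limma adjusted p = 8.14e-04). Its start is not given in the table, so the promoter windows above need not be its own. The transcript with the same junctions as ENST00000256495 held 11.0% ± 8.59 at 0 h and 1.97% ± 0.43 at 24 h, and rose too (1.49, SE 0.34, adjusted p = 0.00816 in limma).

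HES4 was spread over 4 transcripts, and their shares of the level differed between 0 h and 24 h. The protein-coding ENST00000304952 took 50.7% ± 3.72 (SD, n = 3) of the level at 0 h and 36.4% ± 6.09 at 24 h, and its values of 30.5% to 42.6% at 24 h lay below those of 46.4% to 53.0% at 0 h. The protein-coding ENST00000428771 took 14.9% ± 3.36 at 0 h and 23.3% ± 2.27 at 24 h, again without overlap (11.7% to 18.4% against 20.7% to 24.7%). The transcript ENST00000481869, annotated as a retained intron, took 28.8% ± 0.75 at 0 h and 37.0% ± 7.64 at 24 h, with 28.3% to 42.3% overlapping the 28.0% to 29.4% of 0 h. It stood above ENST00000304952 in replicates 2 and 3 at 24 h (15.8 against 11.4 and 17.4 against 15.5 FPKM). In replicate 1 at 24 h (10.7 against 16.1 FPKM) and in every earlier library it stood below. None of the 4 was called: ENST00000428771 changed by 0.88 (SE 0.23, limma adjusted p = 0.0144) and ENST00000481869 by 0.60 (SE 0.21, adjusted p = 0.0532).

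**Figure D5:**
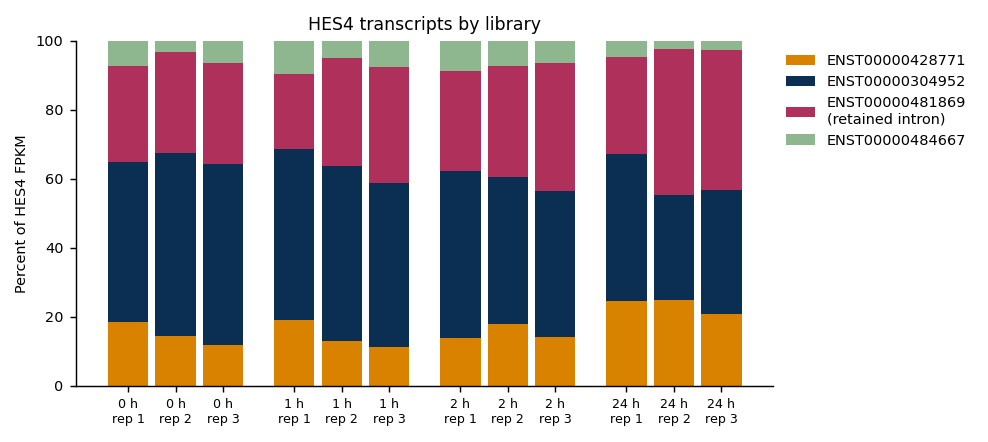
Percent of the summed HES4 FPKM taken by each of its 4 transcripts, 1 bar per library. The dark blue ENST00000304952 took 46.4% to 53.0% at 0 h and 30.5% to 42.6% at 24 h, and the red retained-intron ENST00000481869 28.0% to 29.4% and 28.3% to 42.3%.

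Transcripts annotated as retained introns differed in their share between the other genes. In HES1 they held 2.45% ± 1.07 at 0 h and 2.39% ± 0.41 at 24 h, and in BHLHE40 1.72% ± 1.49 and 2.94% ± 1.41. In ID2 they held 10.3% ± 10.4 at 0 h and 2.32% ± 2.05 at 24 h, within the spread of the replicates. In BHLHE41 they held 3.37% to 50.1% at 0 h, where few fragments stood behind the gene, and 0% to 19.8% at 24 h. ID1 and ID3 had no transcript of this annotation, which does not exclude RNA that keeps an intron. The ID3 transcripts ENST00000463312 and ENST00000486541 had no defined coding sequence in the annotation. They held 7.21% ± 6.27 and 3.50% ± 0.52 of ID3 at 0 h, and 9.98% ± 10.9 and 2.40% ± 0.69 at 24 h.

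The other ID, HES and HEY genes were mostly silent. Of 10 such genes 3 passed the filter, HES2, HES6 and HEYL, and none was called at any time, except HEYL as lower at 24 h with TPM. ID4 was at most 0.14 FPKM, and HES3, HES5 and HELT were at 0 in every library. HES6, which counters HES1 in development, was 27.6, 23.9 and 25.2 FPKM at 0 h and 30.04, 19.3 and 15.8 FPKM at 24 h, a change of -0.28 (95% interval -0.70 to 0.14).

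In the Notch pathway, whose output HES1 and HES4 are, 5 genes were higher and 1 was lower at 24 h of 25 tested out of 30, with a median change of 0.57 (against 8.76% of all genes as higher and 9.51% as lower, median -0.051), and none was called at 1 h or 2 h. NOTCH3, a receptor, rose from 1.02 to 1.92 FPKM at 0 h to 11.7 to 17.0 FPKM at 24 h (log2 change 2.79, SE 0.28). RBPJ rose from 21.7 to 25.5 FPKM to 77.0 to 98.5 FPKM (1.81, SE 0.13). The ligand DLL1 rose by 1.39 and the coactivators MAML3 and MAML2 by 1.55 and 1.16, all at low levels, and LFNG, a glycosyltransferase that tunes the receptors, fell by 1.25. RBPJ and NOTCH3 did not overlap between 0 h and 24 h, and their difference at 2 h was 0.26 and 0.27, with neither called. With TPM the calls of NOTCH3 and LFNG held, those of RBPJ, DLL1, MAML3 and MAML2 were lost, and PSEN2 was called as lower. The calls of DLL1 and MAML2 were also lost with only class = transcripts, and that of MAML2 with a pseudocount of 1 or with only transcripts past the filter.

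Of 6 genes of the TLE family, which includes corepressors that HES proteins recruit, 5 were tested. At 24 h 3 of the 5 were higher and none lower, against 8.76% of all genes as higher and 9.51% as lower, with a median change of 1.05. The list also held TLE6 and AES, and whether HES proteins recruit each of the 6 was not tested. TLE2 rose from 5.80 to 7.10 FPKM at 0 h to 23.0 to 31.7 FPKM at 24 h (1.89, SE 0.20), TLE6 from 1.43 to 2.28 FPKM to 6.46 to 10.1 FPKM (1.93, SE 0.23) and TLE3 by 1.05 (SE 0.18). The call for TLE3 was lost without replicate 2 at 0 h and without replicate 1 at 24 h, and with TPM only the call of TLE6 held.

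In the BMP and SMAD pathway, upstream of the ID genes, 5 of 18 tested out of 25 genes were higher at 24 h and none lower, against 8.76% of all genes as higher and 9.51% as lower, with a median change of 0.51. They were CHRD (1.63, SE 0.23) and SMAD6 (1.43, SE 0.35), both known to restrain BMP signalling, the receptors ACVR2B (1.42, SE 0.20) and BMPR2 (1.25, SE 0.17), and the signal carrier SMAD9 (1.29, SE 0.19). CHRD was 5.66 to 8.11 FPKM at 24 h, and the other 4 were at most 7.79 FPKM in every library. With TPM all 5 calls were lost and SMAD1 was called as lower. ACVR2B also lost its call when only transcripts of class =, only transcripts past the filter or whole loci were summed, with changes down to 0.32 over all alternatives, SMAD9 with a pseudocount of 1, and SMAD6 with no gene filter and with only class = transcripts. SMAD6 also lost its call without either of replicates 1 and 2 at 0 h and without either of replicates 1 and 2 at 24 h. SMAD7, another inhibitor, was called between 2 h and 24 h (1.54, SE 0.27, limma adjusted p = 4.59e-04) and not between 0 h and 24 h (0.77).

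Among the clock genes, the pathway to which BHLHE40 and BHLHE41 belong, 5 of 14 tested out of 20 symbols, 2 of which (CIART and C1orf51) stand for 1 gene that was not tested, were higher at 24 h and none lower, against 8.76% of all genes as higher and 9.51% as lower, with a median change of 0.83. DBP, an output activator, rose from 3.21 to 9.05 FPKM at 0 h to 44.2 to 64.0 FPKM at 24 h (3.05, SE 0.60) and PER1, a repressor of the clock, from 6.05 to 10.8 FPKM to 37.3 to 89.0 FPKM (2.79, SE 0.45). NR1D1, the repressor REV-ERB alpha, rose by 2.32 (SE 0.29), NFIL3 by 1.52 (SE 0.15) and NPAS2, a relative of CLOCK, by 1.05 (SE 0.15). NR1D1 was also higher at 2 h by 1.60 with a limma adjusted p of 0.0419, outside the threshold. The call for NPAS2 was lost without replicate 1 at 0 h and without replicate 2 at 24 h, and those of NPAS2 and NFIL3 were lost with TPM, which called ARNTL2 as lower. With only class = transcripts NPAS2 and NR1D1 lost their calls.

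Of 4 genes described as repressed by BHLHE40 or BHLHE41 none was called by limma at any time, with a median change of -0.086 at 24 h, when 3 of the 4 had an unadjusted p, and also an adjusted p, under 0.05, with changes in both directions. At 24 h 1 of them was called with TPM and without replicate 1 at 0 h.

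Of 6 genes described as controlled by HES1 in gut epithelium, 4 were below the filter, and CDKN1A and CDKN1B, 2 inhibitors of the cell cycle, were both called as higher at 24 h (1.51, SE 0.18, and 1.03, SE 0.19), against 8.76% of all genes as higher and 9.51% as lower. CDKN1A was 54.0 to 67.0 FPKM at 0 h and 157 to 188 FPKM at 24 h, and the call for CDKN1B was lost without replicate 2 or replicate 3 at 24 h. Neither was called with TPM.

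The genes whose levels ran most like those of each member over the 12 libraries were found among 10263 genes with a mean of at least 5 FPKM, by Pearson's r of log2(FPKM + 0.5), which is a description of 12 points that share their time, their library and its depth. For BHLHE40 they were DDIT4 (r = 0.978), an inhibitor of mTOR signalling known to respond to hypoxia, and NR1D1 (r = 0.974). DDIT4 was 11.6, 14.6 and 20.6 FPKM at 0 h, 31.3, 32.2 and 226 FPKM at 1 h and 71.7, 126 and 537 FPKM at 2 h, so that it shared the high replicate 3 of both early times with BHLHE40, and at 24 h it was 751 to 863 FPKM. For HES1 they were PHLDA1 (r = 0.980) and STK3 (r = 0.950), and for BHLHE41 UNC13A (r = 0.983) and MED23 (r = 0.974). For ID1 they were PQLC3 (r = 0.975) and AC108479.2 (r = 0.974), for ID2 CALHM2 (r = 0.902) and TANK (r = 0.900), for ID3 HINT2 (r = 0.960) and ZDHHC13 (r = 0.957), and for HES4 CACUL1 (r = 0.946) and WASL (r = 0.934). No gene was the most alike of more than 1 member.

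In hg19 BHLHE40 lies at chr3:5021122-5027008 and HES1 at chr3:193853937-193856521 on the + strand, ID2 at chr2:8818975-8824591 and ID1 at chr20:30193086-30194318 on the + strand, and BHLHE41 at chr12:26272963-26277970, HES4 at chr1:934342-935552 and ID3 at chr1:23884417-23885992 on the - strand. BHLHE41 shared its assembled locus with RP11-283G6.3, and the other members each had a locus of their own.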

How the data were processed

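The deposited table gives FPKM for every assembled transcript, with class codes, nearest reference transcripts and lengths. The authors built transcript models per sample with Cufflinks, set to the strand of the library, on reads aligned to hg19, and joined them with the Ensembl catalogue; no scaling of the FPKM between libraries is described. Transcripts of class = or j were summed per gene name, and genes above 0.5 FPKM in at least 3 of 12 libraries were tested with limma 3.58.1 (R 4.3.3) on log2(FPKM + 0.5), with 1 mean for each of the 4 groups and a trended variance. The code was tested on simulated data. Besides the 7 members, the genes named were those of the pathway lists called in at least 1 comparison (at most 6 a list, by size of change at 24 h), the 2 genes most like each member, and, picked after their values were seen, HES6, the E proteins, genes named only as tested, untested or absent, markers, and genes that only an alternative called. Single genes of the list described as repressed by BHLHE40 or BHLHE41 are not reported here. The members and lists were chosen with earlier results of these data known.

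Fragments per library were inferred from the lowest step of FPKM times length over single-transcript genes of 2700 to 3300 bases, where at least 87.8% of low values lay within 0.1 of a whole number of steps. FPKM shared out between overlapping isoforms is an estimate, so no count test was run. Promoter sequences came from RefSeq (GRCh38.p14), and all 7 members were matched by symbol. Alternatives were other pseudocounts, filters, scalings, summing rules and fits, a replicate block, and each library left out. Leaving out replicate 3 at 1 h and 2 h together was added after seeing the data.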

Additional observations from a re-analysis of the deposited data

Results flagged for a closer look

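Changes against 0 h were compared between 2 h and 24 h, and in the main fit BHLHE41 was the 1 member called as different between them. Its log2 fold change was 0.13 at 2 h and 1.77 at 24 h, and the difference of 1.64 (SE 0.38) had a limma adjusted p of 0.00359. All 3 libraries at 24 h were above all 3 at 2 h. The call was lost in 6 of 28 alternatives. The 2 h and 24 h changes share the 0 h libraries.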

How the results depend on the processing

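BHLHE40 was called as higher at 24 h under all 28 alternatives (log2 change 2.44 to 4.70), and no alternative called a member at 1 h. Scaling all transcripts of a library to a common sum (TPM) left 2 members called at 24 h (BHLHE40 higher, ID3 lower) and 1 at 2 h (BHLHE40), and turned the sign of BHLHE41 (-0.21 at 1 h, -0.27 at 2 h), HES1 (-0.016 at 2 h), HES4 (-0.44, -0.70 and -0.57 at 1, 2 and 24 h, 0.13 from 2 h to 24 h), ID1 (-0.34 and -0.44 at 1 and 2 h), ID2 (-0.60, -0.47 and -0.075 at 1, 2 and 24 h) and ID3 (-0.26 and -0.86 at 1 and 2 h).

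Between 2 h and 24 h the count of members called was 0 with no gene filter, with only class = transcripts and with only the 6 libraries of the contrast, 2 with the replicate block, and 3 at an adjusted p under 0.05 with no fold threshold. Leaving out each library in turn gave 0 to 4 members between 2 h and 24 h, 2 to 4 at 24 h and 0 at 1 h and 2 h. Without replicate 3 at both 1 h and 2 h, 1 member was called at 2 h and 4 between 2 h and 24 h. With 1 library left out, the changes that turned sign were those of BHLHE41 at 1 h (-0.25 to 0.16) and 2 h (-0.14 to 0.36), and of ID2 at 1 h (-0.40 to 0.36) and from 2 h to 24 h (-0.21 to 0.52). Without both replicates 3 ID2 at 1 h was -0.28.

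Of the members' transcripts at 24 h, 1 was called with no filter and 1 with TPM, 3 with TPM over 300 bases, 3 with only the 6 libraries, 3 without the trend and 8 at an adjusted p under 0.05, and 1 to 6 with a library left out. In the order of levels, 4 steps at 2 h were free of overlap with only class = transcripts and 2 at 24 h with TPM. Leaving out a library gave 3 to 6 at 0 h, 2 to 4 at 1 h and at 2 h, and 6 at 24 h.

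Replicate numbers are shared by the groups but nothing states that they pair the samples. Same-numbered libraries deviated together with r of -0.08 to 0.43 (10 of 18 pairs over 0.1, among them all 3 of 0 h with 2 h and 1 of 3 of 2 h with 24 h), and 9 of 12 libraries correlated best with their own number. The replicate block added ID1 between 2 h and 24 h (adjusted p = 0.0023) and changed no other call of a member. The causes of these changes were not tested.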
